A study of Mus musculus with 10 samples.

Results

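The genes described here send, receive and block the secreted Wnt signal. They comprise 19 Wnt ligands, 2 genes of ligand release (Porcn and Wls), 10 Frizzled receptors, 2 co-receptors (Lrp5 and Lrp6) and 10 secreted antagonists, 43 genes in all of the 18193 that a single-gene probe set read. A probe set is a group of short oligonucleotides on the array that reads one transcript or several related ones. Members were chosen by name: every gene whose symbol is Wnt, Fzd, Sfrp or Dkk followed by a number, together with Porcn, Wls, Wif1, Frzb, Lrp5 and Lrp6. Of the 43, 18 were read by 1 probe set and 25 by several, 84 probe sets in all, and each gene was followed on its probe set of highest mean signal. A filter on low signal (mean under 4.47 log2 units) left 32 members to test and removed 11, which were Wnt1, Wnt2b, Wnt3, Wnt8a, Wnt8b, Wnt10a, Wnt16, Dkk1, Dkk4, Frzb and Wif1.

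Samples came from mouse embryos at 15 days post coitum (dpc) and formed 5 groups of 2 biological replicates: wild type cystic duct of ICR, Sox17+/- and wild type gallbladder of ICR, and Sox17+/- and wild type gallbladder of C57BL/6 (B6). The cystic duct drains the gallbladder into the common bile duct, ICR is an outbred stock and B6 an inbred strain. Sox17 is an endodermal transcription factor needed for biliary development in the mouse, and Sox17+/- embryos carry 1 altered copy. The labels used here give no allele, litter or sex and do not say whether organs were pooled. Sox17+/- cystic duct was not analysed here.

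Wnt ligands are lipid-modified in the endoplasmic reticulum by the acyltransferase Porcn and carried to the cell surface by Wls. At the receiving cell they bind a Frizzled receptor, with Lrp5 or Lrp6 as co-receptor where the signal stabilizes beta-catenin, which then acts in the nucleus with TCF/LEF factors. Wnt5a and related ligands also act without beta-catenin, on cell polarity and movement. Sfrp proteins, Frzb and Wif1 bind the ligands outside the cell, while Dkk1, Dkk2 and Dkk4 bind the co-receptors. In the developing mouse gut and its outgrowths much of this signal passes between mesenchyme and epithelium.

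Promoters are shown for 2 members on which the results below turn: Fzd7, the receptor that was lower both in Sox17+/- gallbladder and in cystic duct, and Wnt5b, a ligand lower in cystic duct whose promoter held a TCF/LEF motif. The sequences are RefSeq's (GRCm38.p6), run 5′ to 3′ from 250 bases before to 50 bases after the annotated start, and have capitals where a searched motif matched.
Fzd7, chr1:59481897-59482196, plus strand: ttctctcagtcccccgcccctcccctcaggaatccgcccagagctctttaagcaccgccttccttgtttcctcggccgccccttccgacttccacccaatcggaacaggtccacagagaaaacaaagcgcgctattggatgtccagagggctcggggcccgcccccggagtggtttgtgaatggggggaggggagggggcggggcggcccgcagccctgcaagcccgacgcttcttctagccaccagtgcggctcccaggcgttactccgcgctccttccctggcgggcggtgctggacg
Wnt5b, chr6:119449337-119449636, minus strand: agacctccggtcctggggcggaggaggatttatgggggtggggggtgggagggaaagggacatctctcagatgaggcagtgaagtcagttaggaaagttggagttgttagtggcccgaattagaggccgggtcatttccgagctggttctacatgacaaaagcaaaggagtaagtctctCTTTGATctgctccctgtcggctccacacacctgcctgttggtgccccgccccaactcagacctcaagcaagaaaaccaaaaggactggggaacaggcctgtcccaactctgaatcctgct
The motifs searched on both strands were AACAAT for Sox factors and CTTTGAA and CTTTGAT for TCF/LEF factors, which do not overlap one another as written. The Fzd7 window held none of these letters, and the Wnt5b window held CTTTGAT starting 71 bases before the start. Wnt5b has 3 promoters in the table, and the one printed was the only one with a match. Of 31 promoters found for 28 members, AACAAT lay in 1 (Fzd10), CTTTGAA in 1 (Dkk1) and CTTTGAT in 2 (Wnt5b and Wnt11). Among all 32851 promoters in the table the shares were 10.7% for AACAAT, 5.14% for CTTTGAA and 3.73% for CTTTGAT.

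Some libraries stood apart before any comparison was made. The cystic duct pair correlated at r = 0.898 across the 14696 tested genes and differed by over 1 log2 unit in 3565 of them, whereas the 4 gallbladder pairs reached r = 0.966 to 0.996. Cystic duct replicate 2 was the highest of all 10 samples for 12 of the 32 tested members (26.9% of all genes), and cystic duct replicate 1 the lowest for 13 (19.6% of all genes). Cystic duct replicate 2 was the lowest for 5 (31.4% of all genes), and cystic duct replicate 1 the highest for 2 (19.5% of all genes). ICR wild type gallbladder replicate 1 gave signals far under those of its partner for the receptors Fzd5 (4.48 against 7.32 in replicate 2) and Fzd4 (6.46 against 7.74) and for Lrp6 (6.70 against 8.66). Sox17 itself was at 7.65 and 7.90 in ICR Sox17+/- gallbladder, against 9.52 and 9.24 in ICR wild type, and at 8.03 and 7.91 in B6 Sox17+/- gallbladder, against 9.29 and 9.04 in B6 wild type. It was at 8.28 and 7.63 in cystic duct. Markers of biliary epithelium were present in every sample, with a mean over 12 genes of 8.58 to 9.28 and none under the filter.

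**Figure D1:**
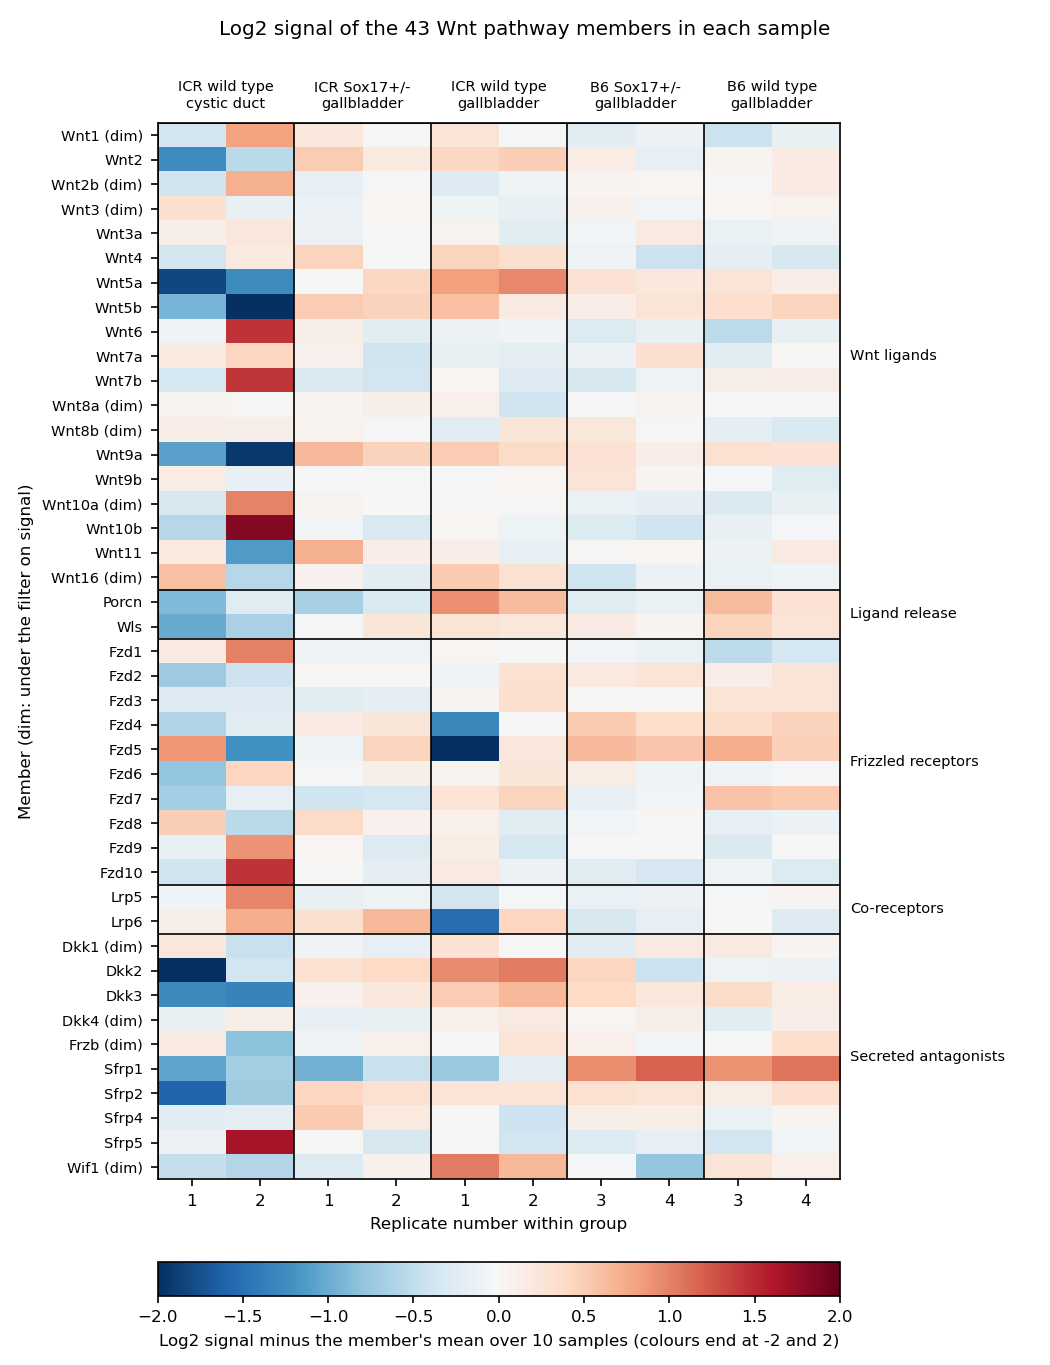
Heat map of the log2 signal of the 43 members (rows, by role) in the 10 samples (columns, by group and replicate number), each as the difference from the member's own mean over the 10 samples, with blue below and red above. For 30 of the 43 members the sample farthest from the member's mean is one of the 2 cystic duct samples. The share of all genes for which this holds was not counted, so the count cannot be read as a trait of these members. Cystic duct replicate 1 was the highest of the 10 samples for 19.5% of all genes and the lowest for 19.6%. Cystic duct replicate 2 was the highest for 26.9% and the lowest for 31.4%. Sfrp1 separates B6 from ICR gallbladder on the probe set shown. Colours end at 2 log2 units on either side of the mean. The lowest value, past that end, is Fzd5 in ICR wild type gallbladder replicate 1, at -2.61.

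The first comparison asked how the Wnt genes of Sox17+/- gallbladder differ from those of wild type over both strains. Fzd7, a Frizzled receptor, and Porcn, the acyltransferase that attaches a lipid to Wnt ligands before secretion, were lower in Sox17+/- gallbladder, and no member was higher. Fzd7 was lower by 1.62 times and Porcn by 1.94 times. The other 30 tested members did not pass the test. By role, 0 of 12 ligands, 1 of 2 genes of ligand release, 1 of 10 receptors, 0 of 2 co-receptors and 0 of 6 antagonists passed.

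Fzd7 signal was 9.60 and 9.64 in ICR Sox17+/- gallbladder, against 10.27 and 10.44 in ICR wild type. In B6 it was 9.83 and 9.94 in Sox17+/- gallbladder, against 10.56 and 10.51 in wild type. All 4 Sox17+/- samples lay under all 4 wild type samples. The fitted difference was -0.70 log2 units (SE 0.07, 95% interval -0.85 to -0.54, limma adjusted p = 0.0121). Ordered by group mean, Fzd7 stood at 9.57 in cystic duct, 9.62 in ICR Sox17+/- gallbladder, 9.88 in B6 Sox17+/- gallbladder, 10.36 in ICR wild type gallbladder and 10.54 in B6 wild type gallbladder, and only the cystic duct and ICR Sox17+/- samples overlapped between neighbours in that order.

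Porcn signal was 6.09 and 6.45 in ICR Sox17+/- gallbladder, against 7.67 and 7.38 in ICR wild type. In B6 it was 6.50 and 6.61 in Sox17+/- gallbladder, against 7.38 and 7.04 in wild type. Here too the groups did not overlap in either strain. The fitted difference was -0.95 log2 units (SE 0.13, 95% interval -1.26 to -0.64, limma adjusted p = 0.0371). Wls, the carrier that takes over the ligand after Porcn, had a difference of -0.20 log2 units (SE 0.08, limma adjusted p = 0.462).

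**Figure D2:**
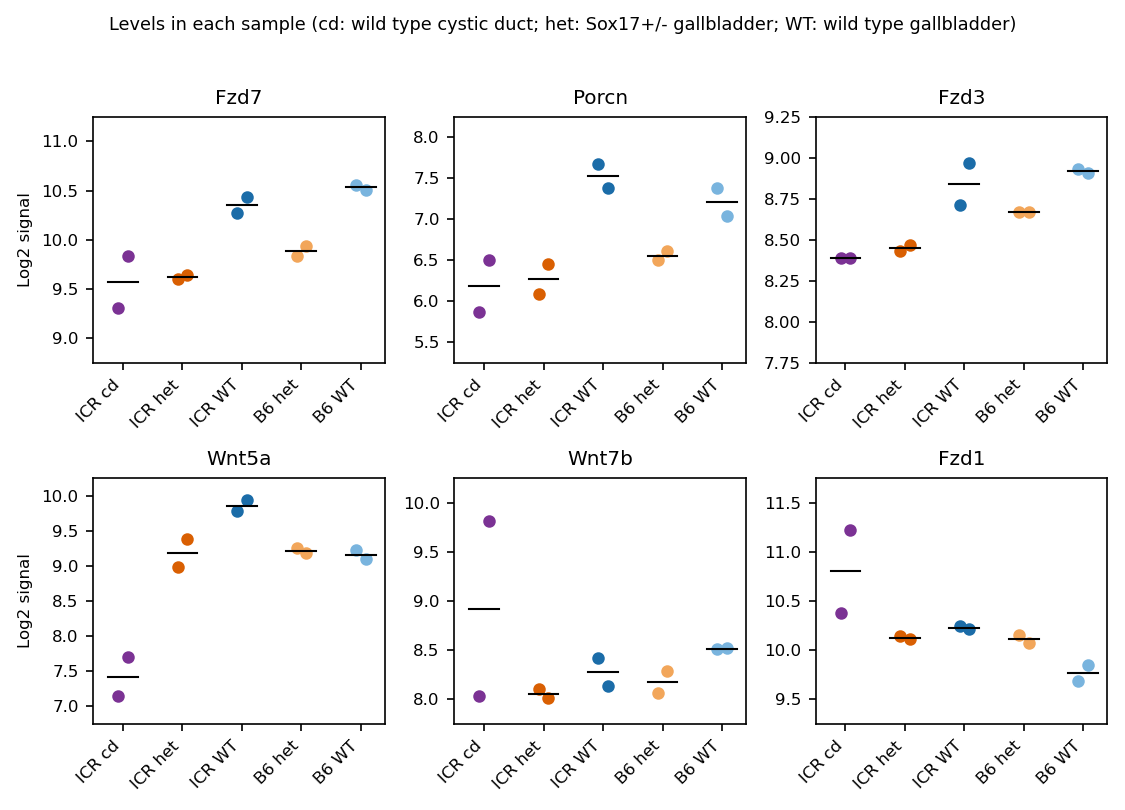
Log2 signal (vertical axis, its own range in each panel) of Fzd7, Porcn, Fzd3, Wnt5a, Wnt7b and Fzd1 in each sample (points) with the group mean (line), for wild type cystic duct (cd), Sox17+/- gallbladder (het) and wild type gallbladder (WT). Fzd7 and Porcn lie lower in Sox17+/- than in wild type gallbladder of both strains without overlap, and the Wnt5a samples of B6 lie together.

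Fzd3, a receptor with known parts in cell polarity and axon guidance, had the next smallest p. Its signal was 8.43 and 8.47 in ICR Sox17+/- gallbladder, against 8.71 and 8.97 in ICR wild type, and 8.67 in both B6 Sox17+/- samples, against 8.93 and 8.91 in B6 wild type. On this brightest probe set of Fzd3 the groups did not overlap in either strain, and the difference was -0.32 log2 units (SE 0.08, limma adjusted p = 0.204). Wnt5a, the ligand best known for signalling without beta-catenin, followed with -0.31 (SE 0.10, limma adjusted p = 0.353).

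The 2 calls among 32 members stand against 0.531% of all 14696 genes called in this comparison (78 genes), 0.32% lower and 0.211% higher. The members' median difference was -0.02 log2 units, and that of all genes was 0.00. Without a test, 5 of the 32 members had groups that did not overlap in the same direction in both strains. Fzd3, Fzd7, Porcn and Wnt7b were lower in this sense, where 5.99% of all genes were, and Sfrp4 was higher, where 4.82% of all genes were. This holds for the probe set that read each gene. The second probe set of Wnt7b overlapped in both strains, with a difference of 0.03. The further tested probe sets of Fzd3 gave -0.14, -0.24 and -0.24, but some overlapped in ICR, and the second of Fzd7 overlapped in B6. Sfrp4, a secreted antagonist, was at 7.35 and 7.02 in ICR Sox17+/- gallbladder, against 6.83 and 6.41 in ICR wild type, and at 6.94 in both B6 Sox17+/- samples, against 6.69 and 6.88 in B6 wild type. Wif1, an antagonist under the filter, was at 3.97 and 4.33 in ICR Sox17+/- gallbladder, against 5.29 and 4.92 in ICR wild type, and at 4.21 and 3.48 in B6 Sox17+/- gallbladder, against 4.50 and 4.35 in B6 wild type, a difference of -0.77 in a fit with no filter (SE 0.18, limma adjusted p = 0.195).

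Both calls depended on the processing and on the samples in the fit. Fzd7 did not pass with samples centred on their medians (limma adjusted p = 0.0775) or with the mean of its probe sets (0.0926). Porcn did not pass with each probe set tested on its own (limma adjusted p = 0.0674). With the cystic duct samples included in the variance, neither passed (limma adjusted p = 0.185 for Fzd7 and 0.273 for Porcn), 3 members were at an unadjusted p under 0.05 (3.55% of all genes) and 8 genes (0.0544%) passed in all. With the replicate number as a block, Porcn had a limma adjusted p of 0.0813 and 1 member passed, with 0.204% of all genes. Fzd7 missed the threshold without B6 wild type replicate 3 or 4 or without B6 Sox17+/- replicate 3 (limma adjusted p = 0.088 to 0.0999), and Porcn missed it without either ICR Sox17+/- sample or without any 1 of the 4 B6 samples (0.0629 to 0.175). Without ICR wild type replicate 2, 5 members passed, with Fzd4, Fzd5 and Lrp6 higher, while 5.22% of all genes did. The second probe set of Fzd7, at a mean of 4.83 close to the filter, gave -0.38 (limma adjusted p = 0.524).

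Cell type markers did not all stay level between genotypes. In ICR, 13 hepatocyte markers averaged 11.19 and 10.51 in Sox17+/- gallbladder, against 9.69 and 9.43 in wild type, and in B6 10.67 and 10.57 in Sox17+/-, against 10.85 and 10.19 in wild type; 1 of the 13 was called higher over both strains and none lay under the filter. The 10 skeletal muscle markers averaged 8.31 and 5.99 in B6 Sox17+/- gallbladder, against 5.31 and 5.36 in B6 wild type, with Myod1 under the filter and 0 called. Smooth muscle markers averaged 9.73 to 9.93 in Sox17+/- gallbladder and 9.89 to 10.08 in wild type. The part of these cells in the Fzd7 and Porcn differences was not tested, and in RNA from whole organs fewer cells of a type and less RNA per cell cannot be told apart.

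**Figure D3:**
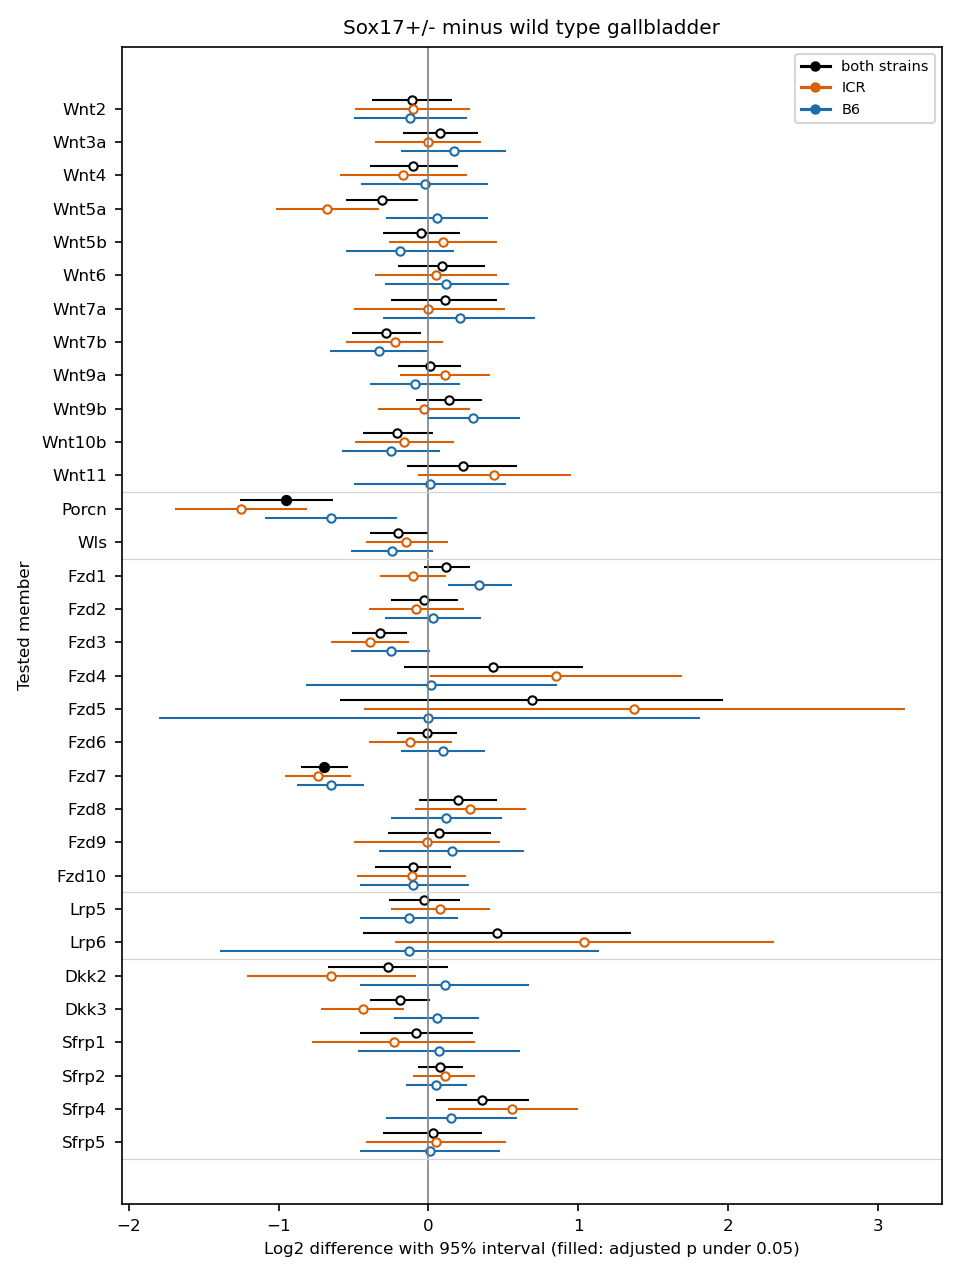
Difference in log2 signal, Sox17+/- minus wild type gallbladder (horizontal axis), for each of the 32 tested members, for the 2 strains together and each alone, with 95% intervals and filled points where the adjusted p is under 0.05. Fzd7 and Porcn over both strains are the filled points, and Fzd5, Lrp6 and Fzd4 have the widest intervals.

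Taken strain by strain, no member passed. In ICR, limma called 0 of 32 members against 0.143% of all genes, with 8 members at an unadjusted p under 0.05 (13.7% of all genes). Fzd7 had a difference of -0.74 log2 units (SE 0.09, limma adjusted p = 0.0547) and Porcn of -1.25 (SE 0.19, 0.077). Wnt5a was at 8.98 and 9.38 in ICR Sox17+/- gallbladder, against 9.78 and 9.93 in ICR wild type, a difference of -0.68 (SE 0.15, limma adjusted p = 0.151). Dkk3, a divergent member of the Dickkopf family, was at 9.41 and 9.53 in ICR Sox17+/- gallbladder, against 9.83 and 9.99 in ICR wild type, a difference of -0.44 (SE 0.12, 0.223). Neither of these 2 genes had overlapping samples in ICR, but the same held for Dkk2, Fzd1, Fzd4, Sfrp2 and Wnt11, among others. The share of all genes without overlap in ICR alone was not counted.

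In B6, limma called 0 of 32 members against 0.034% of all genes, with 4 members at an unadjusted p under 0.05 (4.55% of all genes). The Fzd7 difference was -0.65 log2 units (SE 0.09, limma adjusted p = 0.145) and that of Porcn -0.65 (SE 0.19, 0.763). Wnt7b, a ligand that signals through beta-catenin in many epithelia, was at 8.06 and 8.29 in B6 Sox17+/- gallbladder, against 8.51 and 8.52 in B6 wild type. It was at 8.10 and 8.01 in ICR Sox17+/- gallbladder, against 8.42 and 8.13 in ICR wild type. These values are from the brightest probe set of Wnt7b, and its second probe set overlapped in both strains. The samples did not overlap in either strain, but in ICR the nearest samples of the groups lay almost level, and the B6 difference was -0.33 (SE 0.14, limma adjusted p = 1.0).

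Whether the genotype difference itself differed between strains was tested as B6 minus ICR, and limma called 0 of 32 members against 0.0% of all genes, with 3 members at an unadjusted p under 0.05 (5.53% of all genes). Those 3 were Wnt5a, Fzd1 and Dkk3. Wnt5a was at 9.25 and 9.18 in B6 Sox17+/- gallbladder, against 9.22 and 9.09 in B6 wild type, and its B6 samples overlapped. The difference between strains was 0.73 log2 units (SE 0.21, limma adjusted p = 0.832). Dkk3 was at 9.72 and 9.54 in B6 Sox17+/- gallbladder, against 9.68 and 9.47 in B6 wild type, with a difference between strains of 0.50 (SE 0.17, 0.832). The second probe set of Dkk3 was about as bright (mean 9.29 against 9.32). It read 8.87 and 8.96 in B6 Sox17+/- gallbladder, against 9.26 and 9.08 in B6 wild type, lower as in ICR. The difference between strains was 0.28 on it. For Porcn the difference between strains was 0.60 (SE 0.27, 0.832) and for Fzd7 0.09 (SE 0.13, 0.922). Without ICR wild type replicate 2, limma called 3 members lower in this test, Fzd4, Fzd5 and Lrp6, with 3.77% of all genes called.

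The comparison of B6 with ICR gallbladder, averaged over the genotypes, gave 3 called members. ICR and B6 samples carry separate replicate numbers, so strain cannot be told apart from any other difference between the ICR and B6 sets of samples. Sfrp1, a secreted antagonist that binds Wnt ligands, was higher in B6 by 3.03 times on its brightest probe set. Wnt4, a ligand with known parts in kidney and gonad formation, was lower by 1.48 times, and Dkk2, an antagonist that binds the co-receptors, was lower by 1.65 times. The 3 calls among 32 members compare with 8.92% of all genes called, 4.14% lower and 4.78% higher, so that the members' count lay near the background.

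Sfrp1 signal was 10.58 and 10.83 in B6 Sox17+/- gallbladder and 10.55 and 10.72 in B6 wild type, against 8.69 and 9.21 in ICR Sox17+/- gallbladder and 8.91 and 9.47 in ICR wild type. Every B6 sample lay over every ICR sample on this probe set, and the difference was 1.60 log2 units (SE 0.16, limma adjusted p = 0.0039). Wnt4 was at 8.41 and 8.08 in B6 Sox17+/- and 8.33 and 8.20 in B6 wild type, against 8.97 and 8.51 in ICR Sox17+/- and 8.97 and 8.84 in ICR wild type. All B6 samples lay under all ICR samples, with a difference of -0.57 (SE 0.13, limma adjusted p = 0.0375). Dkk2 was at 9.80 and 8.95 in B6 Sox17+/- and 9.28 and 9.26 in B6 wild type, against 9.68 and 9.77 in ICR Sox17+/- and 10.32 and 10.42 in ICR wild type. Its B6 and ICR samples overlapped through 1 B6 Sox17+/- sample, and the difference was -0.72 (SE 0.17, limma adjusted p = 0.0438).

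Fzd1, a Frizzled receptor, was the next by p in the strain comparison. It was also the 1 tested member whose genotype samples separated in opposite directions in the strains, as 6.14% of all genes did. It was at 10.15 and 10.07 in B6 Sox17+/- gallbladder, against 9.68 and 9.85 in B6 wild type, and at 10.14 and 10.11 in ICR Sox17+/- gallbladder, against 10.24 and 10.21 in ICR wild type. The genotype difference was 0.34 in B6 (SE 0.09, limma adjusted p = 0.714) and -0.10 in ICR (SE 0.09, 0.689), and B6 minus ICR over both genotypes was -0.24 (SE 0.07, 0.0694). The lowest samples were both of B6 wild type.

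For several members the strain difference depended on the probe set. Of 59 tested probe sets of the members, 15 were called (12 lower and 3 higher in B6), in 10 members, against 15.2% of all tested probe sets. Sfrp1 was called in both directions: beside the probe set at 1.60, a second read it higher in B6 by 2.40 log2 units (limma adjusted p = 0.00122), and the others gave -1.96 (0.000631), -0.81 (0.00384) and -0.57 (0.0869). The mean of the 5 Sfrp1 probe sets differed by 0.13 (limma adjusted p = 0.223). The second probe set of Wnt4 gave -0.13 (limma adjusted p = 0.55) and the mean of its probe sets -0.35 (0.0834), so that Wnt4 too lost its call. With every gene read by the mean of its probe sets, 5 members were called, all lower in B6, against 14.1% of all genes, and of these (Dkk2, Dkk3, Fzd2, Wnt5a and Wnt5b) Dkk2 alone was among the 3 above. Wnt5a was called lower in B6 on 2 of its 4 probe sets, with -1.95 on the brighter of them (limma adjusted p = 0.00702), but gave -0.33 and 0.14 on the others. A second probe set of Lrp6 gave -1.16 (0.00244), of Dkk3 -0.83 (0.0103) and a further one of Wls -0.73 (0.00697), against -0.16, -0.09 and 0.06 on the brightest. The brighter _x_at probe set of Wnt5b gave -0.47 (limma adjusted p = 0.00956), against -0.15 on the one that read the gene. What sets these probe sets apart was not tested.

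**Figure D4:**
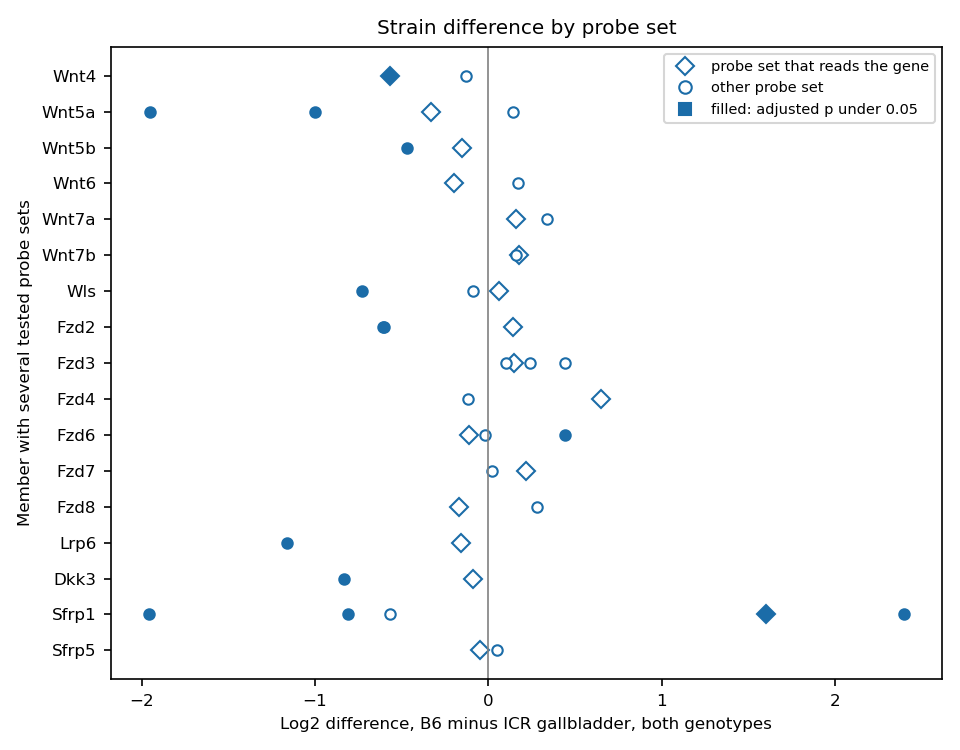
Difference in log2 signal, B6 minus ICR gallbladder over both genotypes (horizontal axis), for every tested probe set of the members with several (rows), with diamonds for the probe set that reads the gene and filled symbols where the adjusted p is under 0.05. The probe sets of Sfrp1 reach from -1.96 to 2.40 and those of Wnt5a from -1.95 to 0.14.

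The strain calls also moved with the samples and the scaling. With samples centred on their medians, with all 10 samples in the fit or without either B6 wild type sample, Sfrp1 was the 1 member called. The shares of all genes called were then 10.8% with centring, 1.35% with all 10 samples, and 2.05% and 1.82% without B6 wild type replicate 3 and 4. Without ICR wild type replicate 2, 6 members were called, with Fzd4, Fzd5 and Fzd7 also higher, near the background of 16.1% of all genes. Wnt4 missed the threshold without ICR Sox17+/- replicate 1 or any 1 of the 4 B6 samples (limma adjusted p = 0.0538 to 0.146), and Dkk2 missed it without either ICR Sox17+/- or either B6 wild type sample (0.0843 to 0.147).

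Markers of other cells also differed between the strains. The 6 leukocyte markers averaged 9.72 to 10.07 in B6 gallbladder, against 8.68 to 9.30 in ICR, with 2 called higher, a median difference of 0.75 and none under the filter. The 8 erythroid markers averaged 7.85 to 8.88 in B6, against 6.77 to 8.13 in ICR, with 2 of the 7 tested called higher and Hba-a1 under the filter. The 12 fibroblast and mesenchyme markers averaged 12.21 to 12.25 in B6, against 11.95 to 12.35 in ICR, with 3 called lower. Their part in the Sfrp1, Wnt4 and Dkk2 differences was not tested.

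The comparison of wild type cystic duct with wild type gallbladder in ICR moved the most members. There 11 members were lower in cystic duct and 0 were higher on the probe set that read each gene. The lower ones were the ligands Wnt2, Wnt5a, Wnt5b and Wnt9a, both genes of ligand release, the receptors Fzd2 and Fzd7 and the antagonists Dkk2, Dkk3 and Sfrp2. The differences ran from 1.59-fold (Fzd2) to 5.41-fold (Wnt5a). For 9 of the 11, all but Fzd2 and Fzd7, the samples did not overlap and the means differed by at least 1 log2 unit, as for 6.19% of all genes in that direction. The 11 calls among 32 members compare with 14.3% of all genes called, 8.61% lower and 5.73% higher. That split moved with the scaling, from 1265 genes lower and 842 higher here to 1603 and 287 on the values as deposited and 1082 and 391 with samples centred on their medians, and all 11 members kept a lower signal, though Fzd2 missed the threshold with centring (limma adjusted p = 0.0523).

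Among the ligands, Wnt5a was at 7.14 and 7.70 in cystic duct, against 9.78 and 9.93 in gallbladder, a difference of -2.43 log2 units (SE 0.22, limma adjusted p = 0.00166). All 4 of its probe sets were called lower. Wnt5b, its closest relative, was at 6.48 and 5.42 in cystic duct, against 8.01 and 7.60 in gallbladder, a difference of -1.86 (SE 0.33, limma adjusted p = 0.0107). Wnt9a, a ligand known from joint and liver development, was at 6.00 and 5.16 in cystic duct, against 7.59 and 7.47 in gallbladder, a difference of -1.95 (SE 0.28, 0.00536). Wnt2, a ligand known from lung mesenchyme, was at 5.78 and 6.50 in cystic duct, against 7.46 and 7.53 in gallbladder, a difference of -1.35 (SE 0.27, 0.0167). None of these 4 ligands overlapped between the organs, and in all 4 both cystic duct samples were also lower than every Sox17+/- and B6 gallbladder sample. The other 8 tested ligands did not pass, and over the 12 the median difference was -0.22 log2 units, against -0.03 over all genes.

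Both genes of ligand release were lower. Wls was at 9.14 and 9.50 in cystic duct, against 10.41 and 10.37 in gallbladder, a difference of -1.07 log2 units (SE 0.16, limma adjusted p = 0.00639). Porcn was at 5.87 and 6.50 in cystic duct, against 7.67 and 7.38 in gallbladder, a difference of -1.34 (SE 0.28, 0.018). Neither gene overlapped between the organs.

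Among the receptors, Fzd7 was at 9.31 and 9.83 in cystic duct, against 10.27 and 10.44 in gallbladder, a difference of -0.79 log2 units (SE 0.17, limma adjusted p = 0.0239). Its dim second probe set gave 0.43 and the mean of the 2 probe sets -0.18 (limma adjusted p = 0.716), so that this call rests on the brighter one. Fzd2, a receptor used by Wnt5a among others, was at 9.14 and 9.45 in cystic duct, against 9.77 and 10.17 in gallbladder, a difference of -0.67 (SE 0.17, 0.0361). The other 8 receptors did not pass, and the median of all 10 was 0.13. Fzd6 was at 8.02 and 9.24 in cystic duct, on either side of 8.89 and 9.06 in gallbladder. The co-receptor Lrp5 was at 5.36 and 6.41 in cystic duct, against 5.07 and 5.39 in gallbladder (0.66, SE 0.32, limma adjusted p = 0.206), and Lrp6 at 8.35 and 8.96, against 6.70 and 8.66 (0.97, SE 0.54, 0.255).

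Among the antagonists, Dkk3 was at 8.04 and 7.99 in cystic duct, against 9.83 and 9.99 in gallbladder, a difference of -1.89 log2 units (SE 0.14, limma adjusted p = 0.00138). Dkk2 was at 7.30 and 9.00 in cystic duct, against 10.32 and 10.42 in gallbladder, a difference of -2.22 (SE 0.49, 0.0239). Sfrp2, a Wnt-binding antagonist of mesenchyme, was at 9.89 and 10.77 in cystic duct, against 11.74 and 11.73 in gallbladder, a difference of -1.40 (SE 0.25, 0.0105). The cystic duct samples of Dkk3 lay close together, whereas those of Dkk2 lay far apart, both under gallbladder, with -1.37 without replicate 1 and -3.07 without replicate 2. The other 3 tested antagonists did not pass, Sfrp1 with -0.42 (SE 0.25, limma adjusted p = 0.282), and the median over the 6 was -0.91. Wif1, under the filter, was at 3.78 and 3.67 in cystic duct, against 5.29 and 4.92 in gallbladder, without overlap. In a fit with no filter it was the 1 of the 11 dim members called, at -1.38 (SE 0.27, limma adjusted p = 0.0175), with 10.8% of all 18193 genes called.

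Read probe set by probe set, 13 members had a call in cystic duct, on 19 probe sets lower and 1 higher of the 59 tested, against 10.1% of all tested probe sets. Beside the 11 members above, a probe set of Sfrp1 was called lower, at -1.36 (limma adjusted p = 0.0311), and a dim one of Fzd8, a receptor, was called higher, at 0.86 (0.0436). The third probe set of Wls gave -0.85 (0.0541) and the second of Fzd2 -0.69 (0.14).

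**Figure D5:**
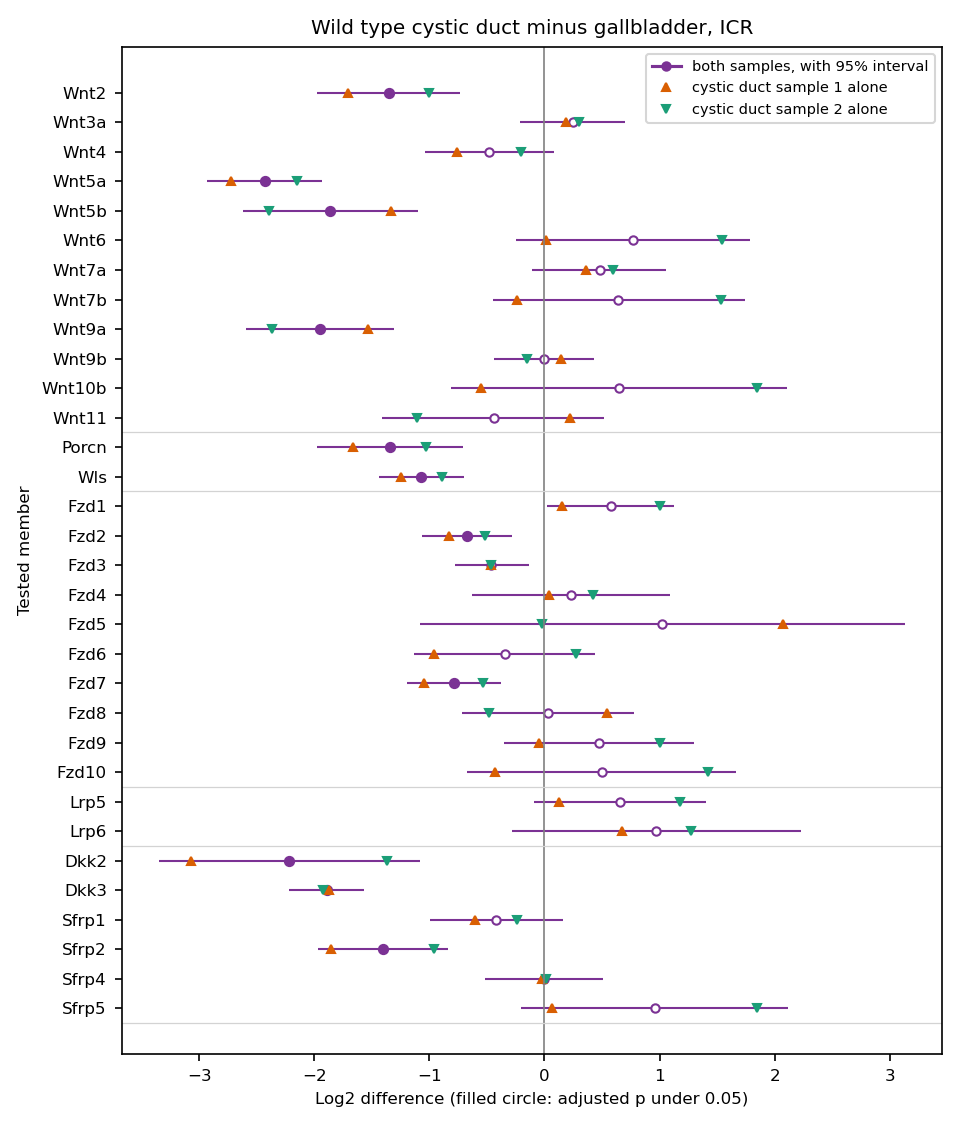
Difference in log2 signal, wild type cystic duct minus wild type gallbladder in ICR (horizontal axis), for the 32 tested members, as the fitted value with its 95% interval (circles, filled where the adjusted p is under 0.05) and for each cystic duct sample alone against the gallbladder mean (triangles). Both triangles lie under 0 for the 11 called members, and they lie on opposite sides of 0 for Wnt7b, Wnt10b and Fzd10, among others.

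The 2 cystic duct samples differed from each other for many members. Both lay below the gallbladder mean for 14 of the 32 members, both above it for 8, and on opposite sides for 10. Wnt10b was at 4.98 in cystic duct replicate 1 and 7.39 in replicate 2, against 5.60 and 5.46 in gallbladder. Wnt7b was at 8.03 and 9.81 in cystic duct, against 8.42 and 8.13 in gallbladder, and Sfrp5 at 6.16 and 7.93, against 6.28 and 5.89. In each of these it was cystic duct replicate 2 that stood high. Without replicate 1, limma called 21 members, 13 lower and 8 higher (28.0% and 23.3% of all genes), and without replicate 2 it called 15, all lower (16.6% of all genes lower). Each of these fits assumes that the lone cystic duct sample varies like the gallbladder groups, so its calls carry none of the spread of the cystic duct pair. The Wnt10b difference was 1.85 without replicate 1 and -0.55 without replicate 2.

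The calls in cystic duct also depended on which samples entered the fit and how they were weighted. The main fit gave all groups a shared variance for each gene. The median difference within the cystic duct pair was 0.54 log2 units, against 0.10 to 0.19 within the gallbladder pairs. The SEs of the main fit can therefore understate the spread of cystic duct. In a fit of the 4 compared samples alone, or with array weights, limma called 0 members and 0 genes, with 11 and 10 members at an unadjusted p under 0.05 (14.2% and 12.7% of all genes). Without ICR wild type gallbladder replicate 1, 5 members were called lower (Dkk3, Fzd2, Wls, Wnt5a and Wnt9a), with 5.59% of all genes called. Without replicate 2, 6 were lower (Dkk3, Sfrp2, Wls, Wnt5a, Wnt5b and Wnt9a) and Lrp6 was higher, with 7.57% of all genes called.

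Markers of other cells moved with this comparison. The 10 smooth muscle markers averaged 8.18 and 8.87 in cystic duct, against 9.96 and 10.00 in gallbladder, and 7 of them were called lower with none under the filter. The 12 fibroblast and mesenchyme markers averaged 11.43 and 12.07 in cystic duct, against 11.95 and 12.35 in gallbladder, with 6 called lower. The 13 hepatocyte markers averaged 12.83 and 12.28 in cystic duct, against 9.69 and 9.43 in gallbladder, with 11 called higher. Erythroid markers (8 on the array, Hba-a1 under the filter) averaged 9.58 and 8.20 in cystic duct, against 7.44 and 6.77 in gallbladder, with 4 called higher. Of 12 biliary epithelial markers 3 were called lower and 1 higher. The part of these cells in the lower Wnt gene signals was not tested.

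Fzd7 and Porcn were called both for genotype and for cystic duct. In ICR the differences of Sox17+/- gallbladder were -0.74 and -1.25, and those of cystic duct were -0.79 and -1.34. Both sets of differences were taken against the same 2 wild type gallbladder samples.

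Other genes of the pathway were followed in 6 lists (R-spondins and their receptors, other extracellular modulators, other receptors and cell polarity genes, the destruction complex with Dishevelled, nuclear factors, and feedback and target genes), with 87 genes on the array and 81 tested. For genotype over both strains limma called 0 of the 81, with 16 at an unadjusted p under 0.05 (10.7% of all genes), and their median difference was 0.00 log2 units. Between strains 9 were lower and 2 higher in B6, where 4.14% of all genes were lower and 4.78% higher. The lower ones were led by Amer1, a scaffold of the destruction complex (-2.07, SE 0.22, limma adjusted p = 0.00438), Tpbg, an inhibitor of Wnt signalling at the membrane (-0.76, SE 0.10, 0.00828), and the beta-catenin cofactor Bcl9l (-0.85, SE 0.12, 0.00989). Nkd1, a feedback inhibitor (-1.20, SE 0.24), and the target gene Ccn4 (-1.06, SE 0.23) followed. The higher ones were Rspo3, an R-spondin ligand (0.50, SE 0.10), and its receptor Lgr4 (0.36, SE 0.08). Each of these genes was read on 1 probe set alone. Whether their strain differences hold on other probe sets or in other fits was not examined. With all 10 samples in the fit, 1.35% of all genes were called between strains, against 8.92% here.

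In cystic duct 18 of these 81 genes were lower and 2 higher than in gallbladder, where 8.61% of all genes were lower and 5.73% higher. The lower ones were led by Cd44, a target gene at 9.53 on average in cystic duct against 10.89 in gallbladder (-1.36, SE 0.18, limma adjusted p = 0.00388), and Tnfrsf19, another target (-1.93, SE 0.26, 0.00416). The kinase Gsk3b of the destruction complex (8.69 on average in cystic duct against 9.69 in gallbladder), Bambi (-0.62, SE 0.10) and Apcdd1, an inhibitor that binds ligands and co-receptors (-1.15, SE 0.22), came next. The higher ones were Ccnd1, which encodes cyclin D1 (0.98, SE 0.24, limma adjusted p = 0.0334), and the transcription factor gene Isl1 (0.78, SE 0.20, 0.0357). By list, 1 of 8 R-spondin genes, 5 of 11 extracellular modulators, 2 of 15 other receptors and polarity genes, 3 of 16 destruction complex genes, 3 of 14 nuclear factors and 4 of 17 feedback and target genes were lower. Here too each gene was read on 1 probe set alone, and other probe sets and fits of these genes were not examined.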

How the data were processed

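Trizol RNA, 10 ug a sample, was labelled as cRNA for Affymetrix arrays, per the labels' protocols. The authors deposited 1 log2 signal for each of 45101 probe sets; how they corrected background and normalized is not stated in the labels. Medians differed between samples (5.51 to 6.07), as did interquartile ranges (2.75 to 3.84), by more than a tolerance of 0.2, so samples were quantile normalized. Of the probe sets, 34945 name 1 gene, 932 several and 9160 none in the platform table, beside 64 controls. Each gene was read by its single-gene probe set of highest mean (names in _x_at only where no other existed). Genes under the 30th percentile of mean signal, taken over all probe sets but the controls, were not tested, which left 14696 genes. Unused sample columns numbered 0. 2 probe sets named Fzd10os, a transcript opposite Fzd10, were left out.

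Group means were fitted in limma 3.58.1 (R 4.3.3) with a mean-variance trend and Benjamini-Hochberg adjustment over all tested genes, at a threshold of 0.05. Gallbladder comparisons used the 8 gallbladder samples (4 residual degrees of freedom, 7.23 with the prior), and cystic duct against gallbladder all 10 (5 and 7.95). The steps were tested on simulated data, in which every sample was drawn with the spread of the gallbladder groups. That test does not cover the wider spread of the cystic duct pair. Labels name no litter or array batch. Same-numbered samples deviated together between genotypes (correlation 0.38 in ICR and 0.22 in B6), so the replicate block is given beside the genotype result where it changed a call. For cystic duct and wild type gallbladder the correlation was 0.07. Where replicates are not stated to be separate litters, p values measure only the spread between samples, and the number of arrays limits precision.

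The members, lists, motifs and the choice of samples in each fit were made with earlier results of these data known. Named members were those called in any comparison, those whose groups did not overlap, those of highest signal in each role and, where few passed, the 4 of smallest p. Pathway genes were named up to 5 per direction by p. Any other member was named after its values had been seen. Alternatives were no added normalization, median centring, a looser or stricter filter, averaged or separate probe sets, no trend, array weights, other samples in the fit, the replicate block, and leaving out each sample. Tables were made in Python 3.11.15.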

Additional observations from a re-analysis of the deposited data

Results flagged for a closer look

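Fzd1 was flagged because every Sox17+/- sample lay over every wild type sample in B6 and under every wild type sample in ICR. Such opposite separation, either way round, was seen for 6.14% of all genes, so it is not particular to Fzd1. The difference in log2 signal, Sox17+/- minus wild type, was 0.34 in B6 and -0.10 in ICR. The difference between the strains, tested as an interaction, was 0.44 (SE 0.13, limma adjusted p = 0.832 over all genes), so it did not pass the correction. In ICR the difference was -0.22 on the values as deposited and -0.03 with samples centred on their medians.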

How the results depend on the processing

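For genotype over both strains, the 2 called members became 1 with median centring, with the mean of probe sets, with each probe set on its own and with the replicate block, 0 with all 10 samples in the fit, and 0 to 5 when 1 sample was left out. In ICR the count of 0 became 1 (Fzd7) on the values as deposited, where 48 genes passed in all. It also changed when either ICR wild type sample was left out. In B6 the count of 0 became 1 (Fzd7) with array weights, where 46 genes passed in all. The count for the difference between strains in the genotype effect ran from 0 to 3 without 1 sample. For B6 against ICR the 3 called members became 1 with median centring or all 10 samples, 5 with the mean of probe sets (1 of them among the 3) and 10 with each probe set on its own, and ran from 1 to 6 without 1 sample. For cystic duct the 11 became 0 with array weights or only the 4 samples compared, and ran from 5 to 21 without 1 sample. The replicate block changed no other call of these counts, and the strain comparison had no such fit because the strains share no replicate numbers. The cause of these changes was not tested.

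Of 609 alternative values for the named differences, each further tested probe set of these members included, 516 kept direction and side of the threshold, 84 kept the direction but no longer passed, 5 newly passed and 4 reversed. The 4 were further probe sets: Sfrp1 between strains at -1.96, -0.81 and -0.57, and Fzd7 in cystic duct at 0.43. Scaling moved the median of all genes in cystic duct minus gallbladder, which was -0.03, to -0.27 as deposited and -0.16 with centring, in ICR genotype (-0.01) to -0.16 as deposited, and in B6 minus ICR (0.05) to 0.14 with centring. Genes called higher and lower in B6 numbered 702 and 609, against 210 and 550 as deposited and 1190 and 392 with centring. For genotype over both strains they numbered 31 and 47, against 23 and 60 as deposited, and in ICR 9 and 12, against 8 and 40 as deposited and 7 and 6 with centring. Over all genes, the genotype calls numbered 78, and 30 with the replicate block, 8 with all 10 samples and 767 without ICR wild type replicate 2. Groups of 2 limit every test. Of the 11 members under the filter, 1 (Wif1, in cystic duct) passed in the fit with no filter.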
